A study of Mus musculus domesticus with 18 samples.

Results

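The enzymes, transporters and regulators of glycolysis, gluconeogenesis and glycogen metabolism were followed in livers of wild house mice from high and low altitude. The list held 36 gene symbols chosen by their role in these pathways, and a symbol was kept when at least 1 probe set on the array was annotated to that gene alone. This left 32 of the 36, among 18193 named genes in all, and each gene was read from the probe set whose mean over the 18 arrays was highest. Gpi1, Pfkfb1 and Eno1 had no such probe set in the annotation used, and Gapdh had control probe sets alone. G6pc1 appears as G6pc in that annotation.

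The liver takes up glucose after a meal and releases it during a fast, and the same cell runs both directions. Glucose enters hepatocytes through Slc2a2 (GLUT2), is phosphorylated, and is either broken down to pyruvate by glycolysis or stored as glycogen. In the fasted state glycogen phosphorylase and the gluconeogenic enzymes supply glucose 6-phosphate, which glucose 6-phosphatase turns into free glucose. Glycolytic genes such as Pgk1, Ldha, Aldoa and Hk2 are known targets of the hypoxia-inducible factors, and several steps have isoforms that hepatocytes use little and that blood, immune or muscle cells use more.

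Total liver RNA from 18 wild male Mus musculus domesticus was hybridised to Affymetrix mouse arrays, 1 array per mouse. The high altitude group held 9 mice from La Paz, Bolivia, at 3600 m, and the low altitude group held 9 mice from Lima, Peru, at 100 m. The mice of a group had been trapped at 3 locations, lettered A to C separately for each altitude, and every location supplied 3 mice. C57BL/6J stands as the strain in the labels, although the other descriptions name wild mice. Age, feeding state and the hour of collection were not given. Altitude coincided with city and mouse population, and these cannot be told apart. All levels below are deposited log2 values, so a difference of 1 is a ratio of 2. Altitudes, locations and mice are compared within a gene. Levels of different genes meet only in sums of markers and in rankings against a median level, which are rough.

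Array medians lay between 5.25 and 5.36 on the log2 scale in the high group and between 5.24 and 5.36 in the low group. The mean correlation of an array with the others lay between 0.981 and 0.985, and no array stood apart by this measure. Of 8 hepatocyte markers 7 were measured, and their median difference between altitudes was -0.01, with summed linear levels of 120600 to 136000 in high altitude and 119200 to 136000 in low altitude mice. All 9 measured leukocyte markers of a list of 10 had a higher mean in high altitude mice, with a median log2 difference of 0.68, and 1 of them, the plasma cell gene Jchain, passed the test. Their summed linear level was 2822 to 12550 in high altitude and 1598 to 5102 in low altitude mice. Of 7 skeletal muscle markers 5 (Ckm, Acta1, Myh4, Mylpf and Tnnt3) lay below the array median on every array. The difference between the 3 prime and 5 prime control probe sets of Actb, a sign of RNA integrity, averaged 1.40 ± 0.32 in high altitude and 1.22 ± 0.17 in low altitude mice (SD, n = 9 each). Mouse 1 of high location B had the largest, 2.02, whereas the highest low altitude mouse had 1.45. RNA integrity entered the altitude and location fits as an alternative, but its part in the co-variation of genes was not tested.

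The first question was which of these genes differed between the altitudes. None of the 32 genes passed limma's test with trapping location as a random block (Benjamini-Hochberg adjusted p under 0.05 over all genes), against 66 of 18193 genes (0.363%). The adjusted p-values of the 32 genes ran from 0.130 to 0.981. At an unadjusted p under 0.05 there were 5 genes, or 15.6%, against 11.5% of all genes and 15% of genes above the median level, so the share was near the background. These 5 were Ldhb, Pfkp, Pkm, Hk1 and Creb3l3. The difference was negative for 14 of the 32 genes (43.8%), against 48.4% of all genes and 52.7% of genes above the median level. The median difference was 0.06, against 0.00442 for all genes. Location means of the altitudes did not overlap for 6 genes (18.8%), against 14.6% of all genes, and these were Pfkp, Pgam1, Ldhb, Gys2, Ppargc1a and Foxo1. For 0 of the 32 genes did the 9 high altitude mice lie apart from the 9 low altitude mice, against 0.115% of all genes.

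The precision of these comparisons is part of the result. The 95% interval of the difference lay within 0.5 on either side of 0 for 19 of the 32 genes (59.4%), against 86.1% of all genes. It lay within 1 for 30 of the 32, against 17684 of 18193 genes, and the exceptions were Ppp1r3c and Ppargc1a. The standard error had a median of 0.14 over the 32 genes, against 0.0869 over all genes.

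**Figure D1:**
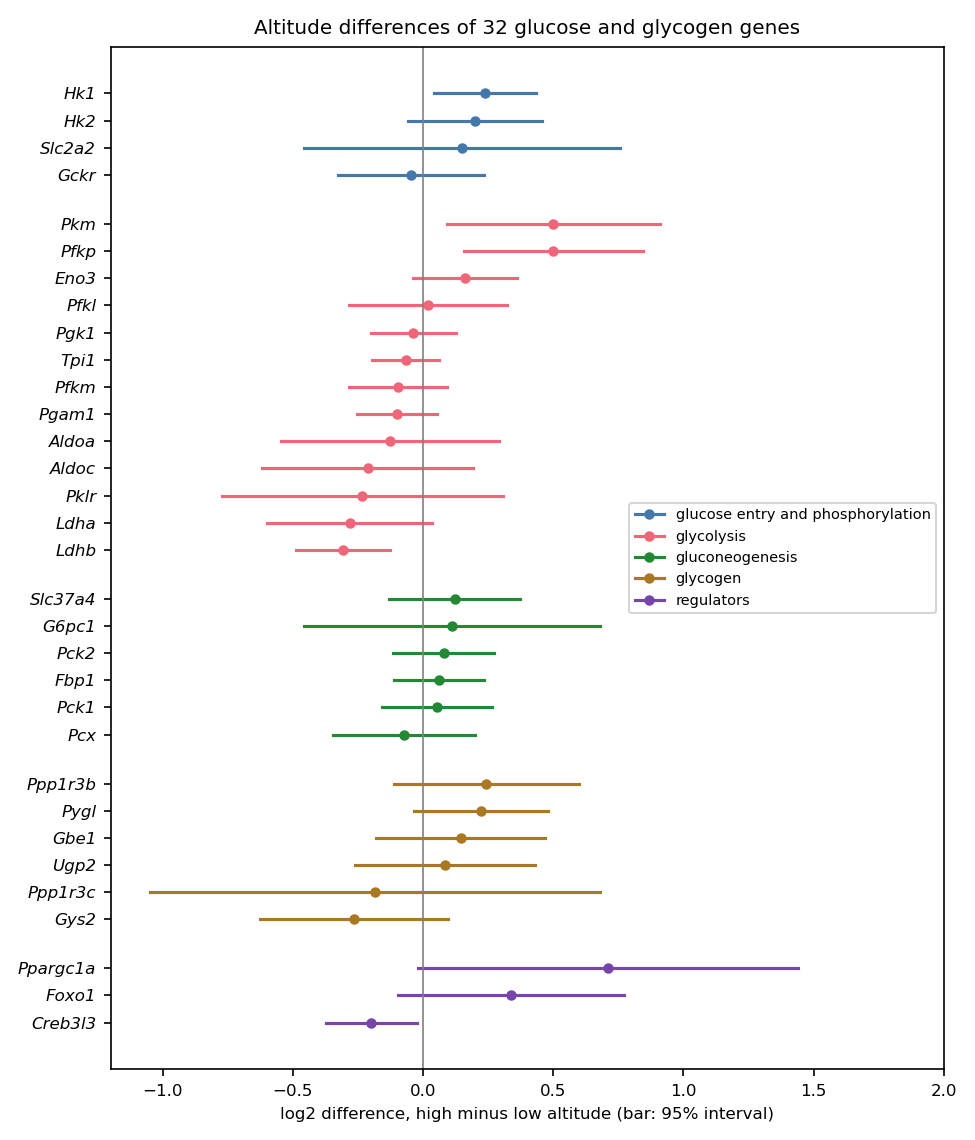
Log2 difference between high and low altitude mice (horizontal axis, high minus low, n = 9 mice each) for the 32 measured genes, grouped and coloured by role; the bar is the 95% interval of limma's fit. The intervals of Pkm, Pfkp, Hk1, Ldhb and Creb3l3 exclude 0 before adjustment, and none of the 32 genes has an adjusted p under 0.05.

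Among the genes of glucose entry and phosphorylation, 4 of 4 were measured and 0 passed the test. Hk1 encodes a hexokinase that is widespread outside hepatocytes. Its lowest, median and highest levels were 5.88, 6.26 and 6.71 in high altitude mice, and 5.78, 6.01 and 6.21 in low altitude mice. The ranges overlapped, with 7 of 9 high altitude mice above the low altitude mean. The difference was 0.24 ± 0.09 (SE), or a ratio of 1.18 (95% interval 1.03 to 1.35), with an adjusted p of 0.304 in limma's fit. Without the mice of high location A the difference was 0.14 (adjusted p = 0.595), and the other probe set of the gene gave 0.12 (adjusted p = 0.698). Hk2, a second hexokinase known mainly from muscle and fat, lay at 5.60, 5.81 and 6.17 (lowest, median, highest) in high altitude mice and at 5.29, 5.52 and 6.23 in low altitude mice, and the highest and the lowest mouse were both low altitude mice. The difference of Hk2 was 0.20 ± 0.12 (SE, adjusted p = 0.575). Slc2a2, the glucose transporter of hepatocytes, and Gckr, the regulatory protein that holds glucokinase in the nucleus, differed by 0.15 ± 0.29 and -0.05 ± 0.13 (SE), with adjusted p-values of 0.919 and 0.949.

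In glycolysis, 13 of 17 listed genes were measured, 0 passed the test, 9 had a negative difference and 4 a positive one. The median difference was -0.10. Of the 13 genes 3 (Ldhb, Pfkp and Pkm, or 23.1%) had an unadjusted p under 0.05. That share was 11.5% among all genes and 15% among genes above the median level, where 11 of the 13 lie. The negative differences made up 69.2%, against 48.4% of all genes and 52.7% of genes above the median level. Ldhb encodes the heart-type subunit of lactate dehydrogenase. Its lowest, median and highest levels were 7.10, 7.49 and 7.55 in high altitude mice, and 7.51, 7.62 and 8.02 in low altitude mice. All 9 high altitude mice were below the mean of the low altitude mice, and the ranges met only between 7.51 and 7.55. The difference was -0.31 ± 0.09 (SE), a ratio of 0.809 (95% interval 0.713 to 0.917), with the smallest adjusted p of the 32 genes, 0.130 in limma's fit. The location means were 7.37, 7.38 and 7.39 at high locations A, B and C, and 7.70, 7.61 and 7.75 at low locations A, B and C. All 4 probe sets of Ldhb gave a negative difference, between -0.74 and -0.31, and 0 of them passed the test over all probe sets.

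Ldha, which encodes the muscle-type lactate dehydrogenase subunit that predominates in liver, was lower on average in high altitude mice too, without passing the test. Its levels were 12.16, 12.75 and 12.87 (lowest, median, highest) in high altitude mice, and 11.91, 13.04 and 13.26 in low altitude mice. All 9 high altitude mice were below the mean of the low altitude mice, but the lowest of the 18 values belonged to mouse 3 of low location C. The difference was -0.28 ± 0.15 (SE, adjusted p = 0.512). It was -0.44 (adjusted p = 0.189) without low location C and -0.19 (adjusted p = 0.776) without low location A.

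Pfkp and Pkm lay on the opposite side. Pfkp encodes the platelet-type phosphofructokinase subunit, and Pkm the pyruvate kinase of muscle, immune and proliferating cells. Pfkp was at 5.28, 5.43 and 6.65 (lowest, median, highest) in high altitude mice and at 4.81, 5.18 and 5.56 in low altitude mice. All 9 high altitude mice were above the mean of the low altitude mice, and the 2 highest levels came from high location A. The difference was 0.50 ± 0.16 (SE), a ratio of 1.41 (95% interval 1.11 to 1.79, adjusted p = 0.192). Without high location A it was 0.25 (adjusted p = 0.420), and the gene's other probe sets gave 0.02 and -0.12, so its direction depended on the probe set. With the Actb measure of RNA integrity as a covariate the adjusted p was 0.0702, the lowest of any of the 32 genes under any of the 35 alternatives tried.

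Pkm was at 6.17, 6.61 and 7.71 (lowest, median, highest) in high altitude mice and at 5.91, 6.13 and 6.83 in low altitude mice. The ranges overlapped, and 3 high altitude mice lay above all low altitude mice, mouse 1 of location A and mouse 1 of location B being the highest. The difference was 0.50 ± 0.20 (SE), a ratio of 1.42 (95% interval 1.07 to 1.88, adjusted p = 0.293).

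The liver isoforms and the enzymes of the shared steps were closer to 0. Pfkl, the liver phosphofructokinase subunit, differed by 0.02 ± 0.15 (SE), and Pklr, the liver and red cell pyruvate kinase, by -0.23 ± 0.26. Of the genes that act between the aldolase step and pyruvate kinase, Tpi1, Pgk1 and Pgam1 had the narrowest intervals: Pgk1, for phosphoglycerate kinase, differed by -0.04 (95% interval -0.20 to 0.13), Tpi1, for triose phosphate isomerase, by -0.07 (-0.20 to 0.06), and Pgam1, for phosphoglycerate mutase, by -0.10 (-0.25 to 0.05). Aldoa and Aldoc, the aldolases best known from muscle and brain, differed by -0.13 ± 0.20 and -0.21 ± 0.19 (SE). Eno3, the muscle enolase, differed by 0.16 ± 0.10, and Pfkm, the muscle phosphofructokinase subunit, by -0.10 ± 0.09. The adjusted p-values of these 9 genes lay between 0.556 and 0.981. The 3 prime control probe set of Gapdh, which was not tested, averaged 13.32 ± 0.12 in high altitude and 13.38 ± 0.10 in low altitude mice (SD, n = 9 each).

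**Figure D2:**
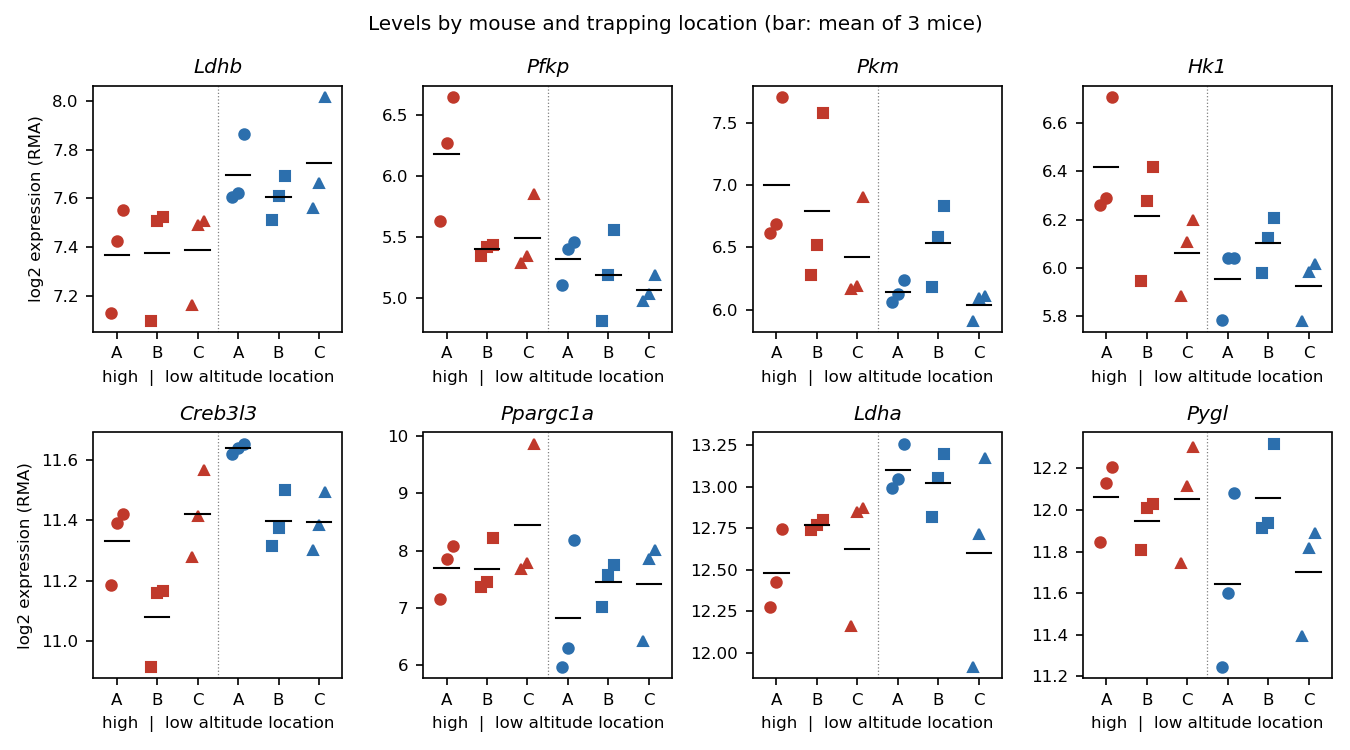
Log2 levels of the 8 genes with the smallest altitude p, 1 point per mouse, by trapping location (horizontal axis: high A, B, C in red, then low A, B, C in blue; black bar: mean of 3 mice). Ldhb shows the 3 high locations at means of 7.37 to 7.39 below the 3 low locations at 7.61 to 7.75, whereas the high Pfkp levels sit mainly in high location A and the highest Ppargc1a level is a single mouse of high location C.

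In gluconeogenesis, 6 of 6 genes were measured, 0 passed the test and 0 had an unadjusted p under 0.05. The differences ran from -0.07 to 0.12, and 5 of the 6 were positive. Pck1, the cytosolic phosphoenolpyruvate carboxykinase, averaged 12.92 ± 0.16 in high altitude and 12.87 ± 0.26 in low altitude mice (SD, n = 9 each). Its ratio of 1.04 had a 95% interval of 0.897 to 1.20. Fbp1 (fructose bisphosphatase) and Pcx (pyruvate carboxylase) had ratios of 1.04 (95% interval 0.925 to 1.18) and 0.949 (0.786 to 1.15). Slc37a4, which carries glucose 6-phosphate into the endoplasmic reticulum, had a ratio of 1.09 (0.914 to 1.30), and Pck2, the mitochondrial carboxykinase, one of 1.06 (0.922 to 1.21). No interval of these 5 genes reached below 0.786 or above 1.30. G6pc1, the catalytic subunit of glucose 6-phosphatase, had a wider interval, with a ratio of 1.08 (0.727 to 1.60).

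In glycogen metabolism, 6 of 6 genes were measured and 0 passed the test, with 4 positive and 2 negative differences. Pygl encodes the liver glycogen phosphorylase, which breaks glycogen down. Its lowest, median and highest levels were 11.75, 12.03 and 12.30 in high altitude mice, and 11.24, 11.89 and 12.32 in low altitude mice. The low altitude mice spanned the whole range of the high altitude mice, and 8 of 9 high altitude mice were above the mean of the low altitude mice. The difference was 0.22 ± 0.12 (SE, adjusted p = 0.524); it was 0.35 without low location B and 0.14 without low location A. Gys2, the liver glycogen synthase, differed by -0.27 ± 0.17, Gbe1, the branching enzyme, by 0.14 ± 0.16, and Ugp2, which makes the UDP-glucose that glycogen synthase uses, by 0.08 ± 0.17. Ppp1r3b and Ppp1r3c, which bring protein phosphatase 1 to glycogen, differed by 0.24 ± 0.17 and -0.19 ± 0.41 (SE). The adjusted p-values of these 6 genes lay between 0.524 and 0.929.

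Of the 3 regulators, 0 passed the test. Creb3l3 encodes CREBH, a membrane-bound transcription factor of the fasting liver. Its levels were 10.91, 11.28 and 11.57 (lowest, median, highest) in high altitude mice, and 11.30, 11.50 and 11.65 in low altitude mice. The ranges overlapped, and 8 of 9 high altitude mice were below the mean of the low altitude mice. The difference was -0.20 ± 0.08 (SE), a ratio of 0.872 (95% interval 0.772 to 0.984, adjusted p = 0.347). It was -0.10 without high location B and -0.12 without low location A, the locations at the 2 ends of its range.

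Ppargc1a encodes PGC-1alpha, a coactivator that raises gluconeogenic and mitochondrial genes in the fasted liver. Its levels were 7.16, 7.77 and 9.87 (lowest, median, highest) in high altitude mice, and 5.96, 7.58 and 8.19 in low altitude mice. Of the low altitude mice 4 lay below all high altitude mice, and 1 high altitude mouse, mouse 1 of location C, stood above all others. The difference was 0.71 ± 0.35 (SE), the largest in size of the 32 genes, with a 95% interval of -0.02 to 1.44 and an adjusted p of 0.452. Without that mouse it was 0.47, and all 5 probe sets of the gene gave a positive difference, between 0.14 and 0.71. Foxo1, the insulin-restrained transcription factor that acts with PGC-1alpha, differed by 0.34 ± 0.21 (SE, adjusted p = 0.576), and its 4 probe sets disagreed in sign, from -0.29 to 0.40.

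A further 70 genes of the same pathways were listed, for other isoforms, pyruvate and lactate handling, glycerol and fructose entry, glycogen accessory proteins and hormone signalling, and 63 were measured. None of them passed the altitude test, and 10 (15.9%) had an unadjusted p under 0.05, against 11.5% of all genes and 15% of genes above the median level, a share near the background. The 5 with the smallest p were Phkb, Pdk2, Pdk4, Mdh1 and Stbd1. Phkb, the beta subunit of the kinase that activates glycogen phosphorylase, averaged 7.11 ± 0.20 in high altitude and 7.52 ± 0.25 in low altitude mice (SD, n = 9 each), a difference of -0.41 ± 0.11 (SE, adjusted p = 0.1003). All 9 high altitude mice were below the mean of the low altitude mice of Phkb.

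Pdk2 and Pdk4 encode kinases that switch off pyruvate dehydrogenase, Pdk4 being known to rise in fasting. Pdk2 averaged 9.40 ± 0.14 in high altitude and 8.99 ± 0.38 in low altitude mice (SD), and Pdk4 averaged 6.39 ± 0.58 and 5.72 ± 0.52 in high and low altitude mice. The differences were 0.41 ± 0.13 and 0.68 ± 0.24 (SE), with adjusted p-values of 0.181 and 0.233. Mdh1, the cytosolic malate dehydrogenase, differed by 0.19 ± 0.07 (adjusted p = 0.259). Stbd1, which anchors glycogen to membranes, differed by -0.87 ± 0.34 (adjusted p = 0.293), and its spread was wide, from 6.28 to 9.21 in high altitude and from 8.28 to 9.97 in low altitude mice.

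Differences between the trapping locations of 1 altitude were tested next. Among the 3 high locations, 0 of the 32 genes passed the moderated F test after adjustment, against 55 of 18193 genes (0.302%). Unadjusted, 4 genes (12.5%) had p under 0.05, against 8.91% of all genes. Among the 3 low locations, 0 of the 32 genes passed, against 13 genes in all (0.0715%), and 1 gene (3.12%) had an unadjusted p under 0.05, against 6.68% of all genes.

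The 4 genes at high altitude were Pfkp, Creb3l3, Eno3 and Aldoc. Pfkp averaged 6.18 at location A, 5.40 at B and 5.49 at C (adjusted p = 0.249 in limma's F test). The leukocyte gene Ptprc also had its highest location mean at A, with 9.57 at A, 8.56 at B and 8.19 at C, and its part in the Pfkp levels was not tested. Creb3l3 averaged 11.33, 11.08 and 11.42 at A, B and C (adjusted p = 0.440). Eno3 averaged 5.75, 6.13 and 5.85 (adjusted p = 0.528). Its levels were 5.71, 5.84 and 6.48 (lowest, median, highest) in high altitude and 5.56, 5.74 and 6.03 in low altitude mice, and the highest came from mouse 1 of high location B, which also had the largest 3 prime minus 5 prime difference of Actb, 2.02. Whether RNA integrity had a part in that level was not tested. Aldoc averaged 7.75, 8.49 and 8.31 (adjusted p = 0.549), with levels of 7.28, 8.41 and 8.82 in high altitude and 7.81, 8.44 and 8.74 in low altitude mice, so the 2 lowest of the 18 mice were high location A mice.

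At low altitude the 4 smallest p-values belonged to Hk2, Creb3l3, Pygl and Ldha. Hk2 averaged 5.52, 5.97 and 5.35 at locations A, B and C (unadjusted p = 0.00524, adjusted p = 0.450 in limma's F test). Creb3l3 averaged 11.64, 11.40 and 11.39 (adjusted p = 0.773), and the 3 mice of location A lay close together, with an SD of 0.0166. Pygl averaged 11.64, 12.06 and 11.70 (adjusted p = 0.822). Ldha averaged 13.10, 13.02 and 12.60 (adjusted p = 0.829).

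The genes varied between mice more than most genes on the array. The SD over the 18 mice had a median of 0.302 over the 32 genes, against 0.185 over all genes and 0.225 over genes above the median level. Of the 32 genes, 28 had an SD above that of the median gene and 12 lay above the 90th percentile of all genes. The 3 smallest SDs belonged to enzymes of the shared middle steps, with 0.114 for Tpi1, 0.145 for Pgam1 and 0.153 for Pgk1. The 5 genes with the largest SD were Ppp1r3c, Ppargc1a, Slc2a2, G6pc1 and Pklr.

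Ppp1r3c, which encodes the glycogen-targeting phosphatase subunit PTG, had levels of 8.33, 10.29 and 11.45 (lowest, median, highest) in high altitude mice, and 9.16, 10.13 and 12.03 in low altitude mice. Its 18 values spanned a ratio of 13.0, and mice from the same location lay far apart: at high location B the values were 8.33, 11.19 and 11.44. The SD within locations was 1.07, against an SD of 0.94 over all mice.

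Slc2a2 had levels of 9.87, 11.44 and 12.38 (lowest, median, highest) in high altitude mice, and 10.63, 11.11 and 12.45 in low altitude mice, a span of 6.01-fold. The lowest mouse came from high location B and the highest from low location B. G6pc1 had levels of 10.54, 11.34 and 12.73 in high altitude mice, and 10.34, 11.22 and 12.14 in low altitude mice, a span of 5.24-fold. The highest G6pc1 level was that of mouse 3 of high location C, and the lowest that of mouse 3 of low location C. Pklr had levels of 7.82, 8.67 and 9.66 in high altitude mice, and 8.31, 8.70 and 10.03 in low altitude mice, a span of 4.63-fold. For each of these 3 genes the altitudes overlapped over most of the range.

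**Figure D3:**
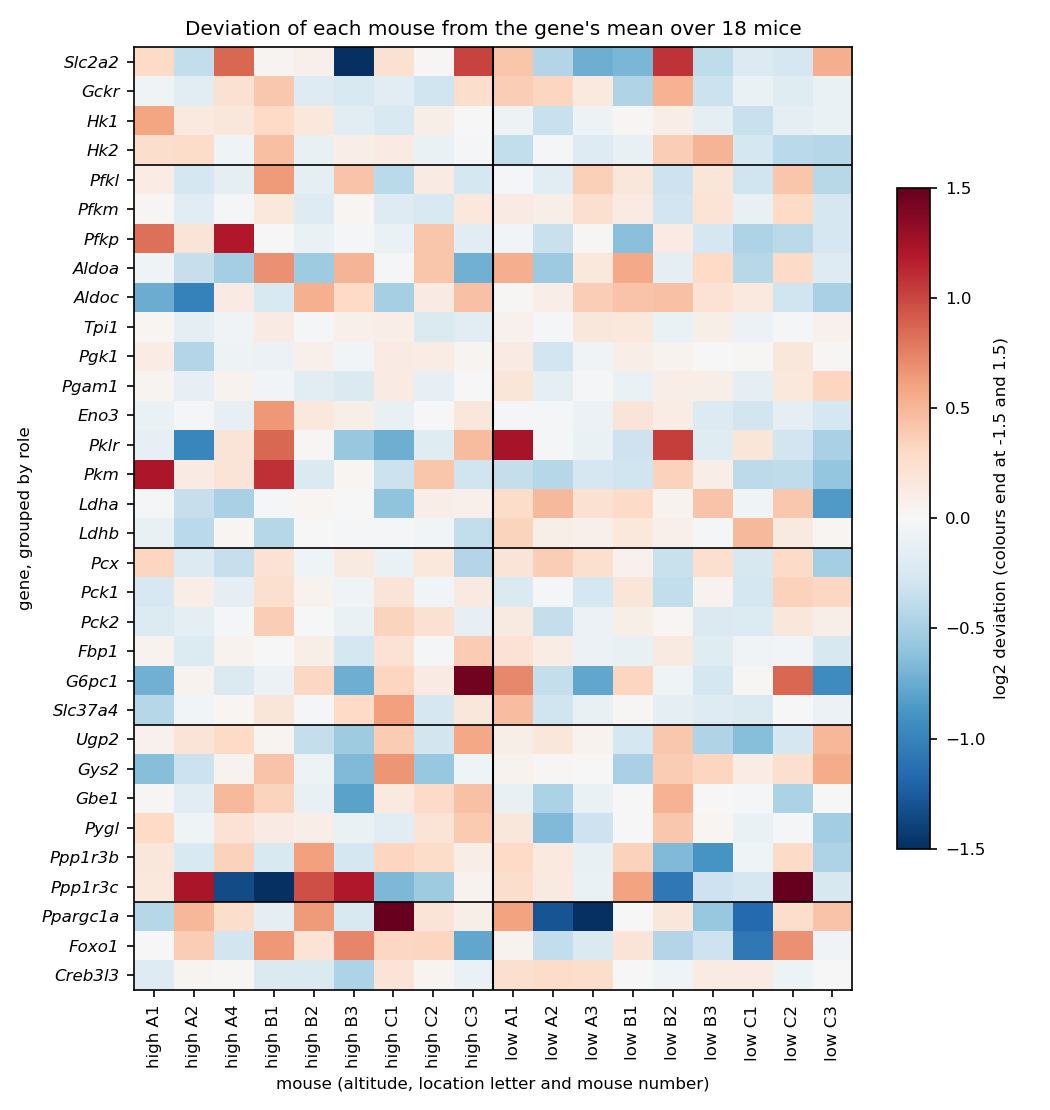
Log2 deviation of each mouse (columns: 9 high altitude mice, then 9 low altitude mice) from the mean of each of the 32 genes over the 18 mice (rows, grouped by role); red is above and blue below the gene's mean, and colours end at 1.5. Ppp1r3c, Ppargc1a, Slc2a2, G6pc1 and Pklr show the strongest colours, in single mice of both altitudes, whereas Tpi1, Pgam1 and Pgk1 are nearly white.

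The last question was which genes went together across mice. A list of 22 pairs held neighbouring or opposed steps, a regulator with a target, or an isoform of other cells with Ptprc, the leukocyte surface gene CD45. Of these, 21 could be tested, since Eno1 was not measured. The pairs were chosen with earlier results of these data known, so their p-values are descriptive. The share of all genes that go as closely with Ptprc was not computed. A permutation test (two-sided, 100000 resamples, 18 mice, adjusted over 21 pairs) gave 5 pairs with adjusted p under 0.05, and all 5 also passed with Spearman's rho.

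Gckr and Pklr, both hepatocyte genes of glucose use, had r = 0.77 (permutation p = 0.00015, adjusted p = 0.00105) and rho = 0.719 (permutation p = 0.00109, adjusted p = 0.00763). Gckr levels were 9.91, 10.05 and 10.61 (lowest, median, highest) in high altitude mice, and 9.75, 10.11 and 10.73 in low altitude mice. Within each altitude r was 0.808 over the 9 high altitude mice and 0.755 over the 9 low altitude mice (exact permutation p = 0.00901 and 0.0148, not adjusted), and neither passed after adjustment over 21 pairs. After centring each gene on its location means r was 0.801 (adjusted permutation p = 0.0163), and without the 2 mice farthest from the median of Gckr it was 0.65. Gckr and Slc2a2 had r = 0.531 over all mice, which did not pass (permutation p = 0.0237, adjusted p = 0.0829; rho = 0.552, permutation p = 0.0197, adjusted p = 0.0634; without the 2 farthest mice r = 0.45). Centred on location means, Gckr and Slc2a2 had r = 0.80 (adjusted permutation p = 0.00735).

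The other 4 pairs joined isoforms that hepatocytes use little. Hk1 with Ptprc had r = 0.799 (permutation p = 4e-05, adjusted p = 0.00084) and rho = 0.738 (permutation p = 0.00085, adjusted p = 0.00763). Pkm with Ptprc had r = 0.783 (permutation p = 8e-05, adjusted p = 0.00084) and rho = 0.787 (permutation p = 0.00018, adjusted p = 0.00378). Pfkp with Ptprc had r = 0.728 (permutation p = 0.0006, adjusted p = 0.00315) and rho = 0.695 (permutation p = 0.00181, adjusted p = 0.0095). Mice with a higher Ptprc level had higher levels of these 3 genes. Hk2 with Pkm had r = 0.687 (permutation p = 0.0013, adjusted p = 0.00546) and rho = 0.674 (permutation p = 0.00304, adjusted p = 0.0128).

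Without the 2 mice farthest from the median of the first gene, these r values were 0.668 for Hk1 with Ptprc, 0.704 for Pkm with Ptprc, 0.574 for Pfkp with Ptprc and 0.659 for Hk2 with Pkm. Centring on location means gave 0.525, 0.587, 0.50 and 0.525 for the same pairs, with adjusted permutation p-values of 0.183, 0.10, 0.172 and 0.253, so these 4 did not pass within locations. Within the 9 high altitude mice r was 0.852, 0.813, 0.768 and 0.632 for these pairs (exact permutation p = 0.00343, 0.00667, 0.0135 and 0.071, not adjusted). Within the 9 low altitude mice it was 0.581, 0.617, 0.423 and 0.878 (exact permutation p = 0.0991, 0.0797, 0.255 and 0.00882, not adjusted).

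Ptprc had levels of 7.87, 8.61 and 10.14 (lowest, median, highest) in high altitude mice, and 6.70, 7.89 and 9.10 in low altitude mice. It averaged 8.78 ± 0.73 in high altitude and 7.95 ± 0.75 in low altitude mice (SD, n = 9 each), a difference of 0.83 ± 0.32 (SE, adjusted p = 0.286), and 8 of 9 high altitude mice were above the mean of the low altitude mice. Pkm, Pfkp and Hk1 are the 3 genes with positive differences at an unadjusted p under 0.05. They are also the only 3 set against Ptprc, a choice made with earlier results known, so the match carries no weight. The part of leukocyte content in the altitude differences of these 3 genes was not tested. In bulk liver, fewer or more cells of a type cannot be told apart from less or more RNA per cell.

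Pairs of the gluconeogenic programme did not pass. Pck1 with G6pc1 had r = 0.276 (permutation p = 0.269, adjusted p = 0.404; rho = 0.315, permutation p = 0.204, adjusted p = 0.307; without the 2 farthest mice r = 0.176). Pck1 with Ppargc1a had r = 0.423 (permutation p = 0.0788, adjusted p = 0.157; rho = 0.375, permutation p = 0.126, adjusted p = 0.204; without the 2 farthest mice r = 0.506). G6pc1 with Ppargc1a had r = 0.401 (permutation p = 0.0992, adjusted p = 0.16; rho = 0.521, permutation p = 0.0283, adjusted p = 0.0744; without the 2 farthest mice r = 0.589). The remaining 12 pairs had adjusted permutation p-values between 0.101 and 0.687.

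**Figure D4:**
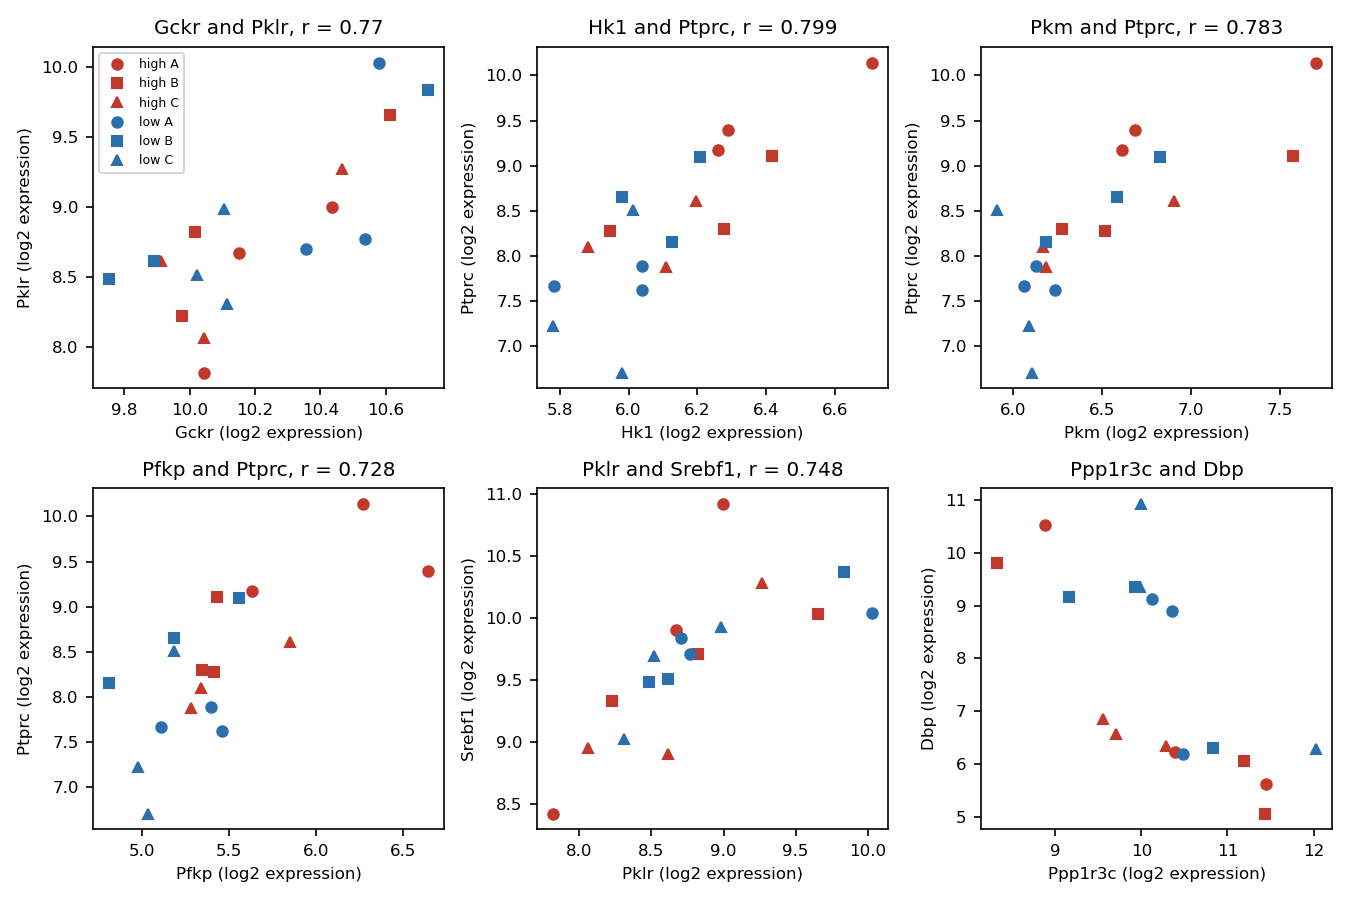
Log2 levels of pairs of genes in the 18 mice, 1 point per mouse (red: high altitude; blue: low altitude; circle, square and triangle: locations A, B and C), with Pearson r over all mice in the title except for Dbp, whose levels fall into 2 separate sets. Mouse 1 of high location A lies at the upper right for Ptprc with Hk1 and Pkm, and the high and low altitude mice overlap along the line of Gckr and Pklr.

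All 496 pairs of the 32 genes were also described after centring on location means, with no test. Of these, 14 (2.82%) had r above 0.7, against 1.42% of all gene pairs and 2.03% of pairs of genes above the median level. Another 2 (0.403%) had r below -0.7, against 1.23% of all pairs and 1.18% of pairs above the median level. The median size of r was 0.258, against 0.249 and 0.257. Centred values of 3 mice per location share a mean, and all values share array and normalization.

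The pairs with the highest r, chosen by that value, formed a group around Slc2a2, Gckr and Pklr. Pklr with Pygl had r = 0.822, Slc2a2 with Pklr 0.805, Gckr with Pklr 0.801, Slc2a2 with Gckr 0.80 and Slc2a2 with Gbe1 0.793. Uncentred, the same pairs had r = 0.49, 0.522, 0.77, 0.531 and 0.793 in this order, so several were weaker over all mice. In centred values, Pklr with Gbe1 followed at 0.759 and Slc2a2 with Fbp1 at 0.754. Genes of glucose entry, of glycolysis, of glycogen and of gluconeogenesis were thus all among these pairs. A second group joined Pfkl with Aldoa (0.749), with Pfkm (0.747) and with Pcx (0.742). Ppargc1a went with Slc37a4 (0.741).

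The 2 pairs below -0.7 were Gbe1 with Ppp1r3c (-0.806) and Hk2 with Ppp1r3b (-0.715). Uncentred, Gbe1 with Ppp1r3c had -0.762, with -0.76 within the high and -0.766 within the low altitude mice. Among the 10 most negative values, Ppp1r3c also stood with Gckr (-0.62), Gys2 (-0.584), Pfkp (-0.559) and Pklr (-0.533), whereas with Ppp1r3b its value was positive (0.306).

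**Figure D5:**
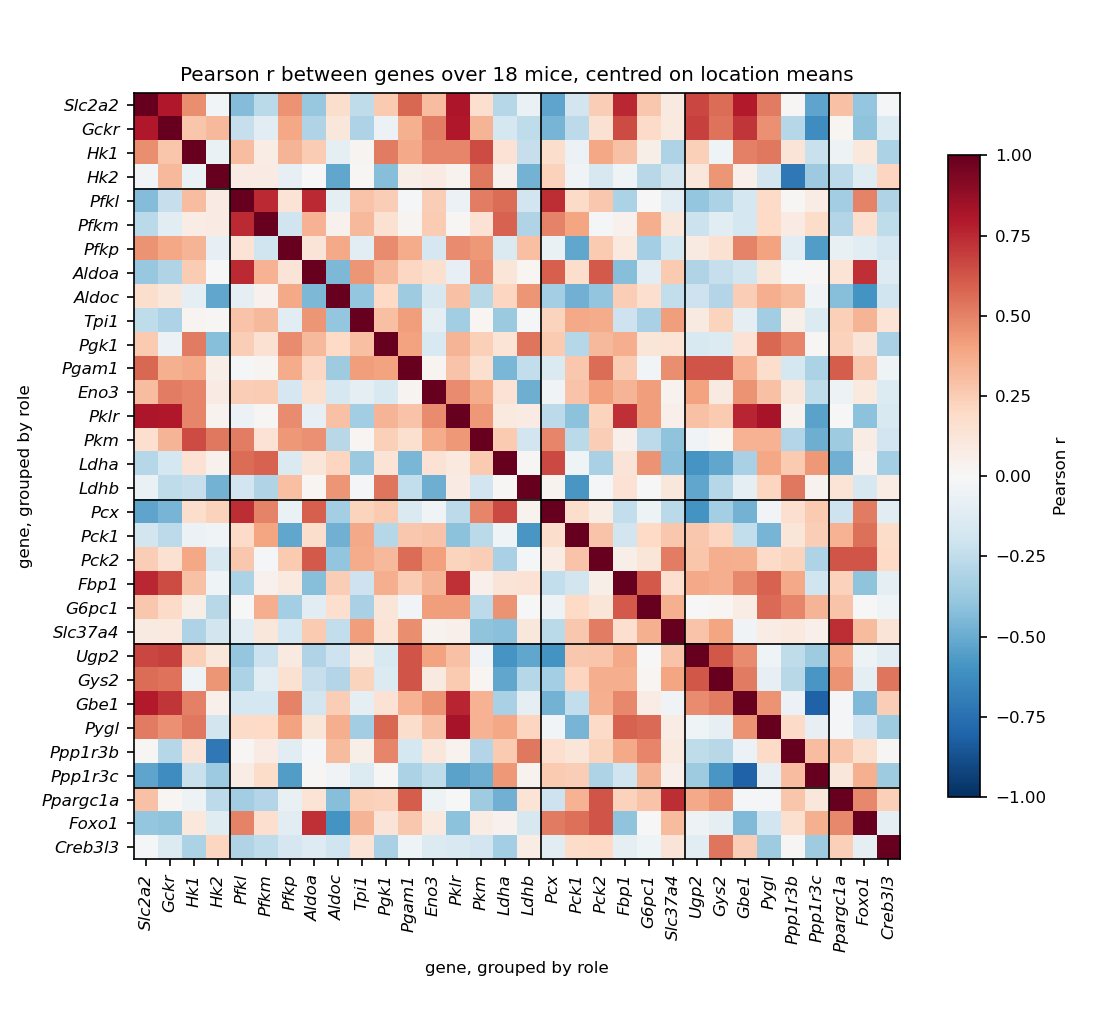
Pearson r between each pair of the 32 genes over the 18 mice after centring on location means (both axes: genes grouped by role; red is positive, blue negative). The red block of Slc2a2 and Gckr with Pklr and Gbe1 lies between 0.711 and 0.805 (0.37 to 0.793 uncentred). The row of Ppp1r3c is blue against Gbe1 and Gckr.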

How the data were processed

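Liver RNA of 18 mice was measured on 18 Affymetrix arrays. The deposited log2 values of 45101 probe sets were made by the authors with RMA in the R package affy, per the submitters' processing notes; versions and scan dates are not given in the sources used. In RMA the background is corrected, arrays are quantile normalized and probes are summarised, so differences of dim genes are compressed and levels do not compare between probe sets. Every value column was matched to a sample, leaving 0 unmatched.

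Gene names came from GEO's platform annotation: 34945 probe sets had 1 gene symbol and 932 several, and 18193 genes resulted. Affymetrix control probe sets were left out of the tests. Of the 32 probe sets read here, 2 have a name ending in x and 1 in s, the manufacturer's marks for probes that may also match related sequences. No filter on level was used. Coordinates are left out, since the values carry no genome build.

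For altitude, limma 3.58.1 in R 4.3.3 fitted all 18 mice with location as a random block (consensus correlation 0.00586), eBayes with a trend, and p-values adjusted by Benjamini-Hochberg over the 18193 genes, called at 0.05. At that correlation the block had little effect: 66 genes passed with it and 66 with mice as independent samples. Locations were compared by moderated F tests in a fit of 6 location means. Correlations used permutation tests with 100000 resamples, or full enumeration within an altitude, in Python 3.11.15 with numpy 2.4.6 and scipy 1.17.1. These permutations treat mice of 1 location as independent unless values were centred on locations, where they ran within locations. The replicates are separate mice, and the number of arrays limits the precision. The procedure was tried on simulated data with independent normal noise. A log2 change of 0.5 was called for 82.1% of changed genes between altitudes. At 1 location it was called for 32.8% among the high and 37.3% among the low locations. The changed genes were drawn from all 18193 genes with their own spread. The 32 genes had a larger median standard error in the altitude fit (0.14, against 0.0869 over all genes). The shares called therefore do not carry over to the 32 genes, for which they were not computed. The altitude simulation held no location effect and no correlation between genes, so it does not test the random block.

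The members, the lists and the pairs were chosen with earlier results of these data known. Values by mouse are given for the 8 genes with the smallest altitude p, the 4 with the smallest F-test p at each altitude, the 5 with the largest SD and the genes of pairs past the test; of the other pathway genes the 5 with the smallest altitude p are named. Alternatives covered probe set choice, scaling, level filter, moderation, array weights, RNA integrity, the treatment of location and mouse number, and leaving out each mouse and location. Mouse numbers do not pair the samples: residuals of mice with the same number in different locations had a mean correlation of -0.0142 over 40 pairs, against 0.00648 over 95 pairs with other numbers.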

Additional observations from a re-analysis of the deposited data

Results flagged for a closer look

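In each group of 9 mice and for each of the 32 genes, the highest and the lowest mouse were checked for a gap to the nearest of the others that was large against the whole range (Dixon's 95% critical value). Of 64 such groups 9 had a mouse far from the others. For independent groups with normal noise, chance gives about 1 in 20 groups. These groups reuse the same mice, and the levels of several genes went together, so they are not independent. The share of such groups among all genes was not computed. Whether the 32 genes had more of them than other genes was therefore not tested.

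Among high altitude mice Pgk1 was lowest in mouse 2 of high location A, at 11.5 (the other 8 lay at 11.8 to 12.1). Among low altitude mice it was lowest in mouse 2 of low location A, at 11.7 (others 11.9 to 12.1). These are separate animals from separate locations, and the shared number and letter do not link them. Mouse 1 of high location B had an Eno3 level of 6.48 (others 5.7 to 6.0), and mouse 3 of low location C had the lowest Ldha level, 11.9 (others 12.7 to 13.3). G6pc1 was highest in mouse 3 of high location C at 12.7 (others 10.5 to 11.6), and Slc37a4, its transporter partner, was highest in mouse 1 of low location A at 12.3 (others 11.6 to 11.9). Gbe1 was lowest in mouse 3 of high location B at 8.31 (others 8.95 to 9.59), the mouse that also had the lowest Slc2a2 level, and highest in mouse 2 of low location B at 9.63 (others 8.63 to 9.11), the mouse that had the highest Slc2a2 level. Ppargc1a was highest in mouse 1 of high location C at 9.87 (others 7.16 to 8.23).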

How the results depend on the processing

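None of the 32 genes passed under any of 35 alternatives for altitude or 26 for the locations, and 20 kept the sign of their altitude difference in every alternative run (a second probe set exists for 15 genes and the filter on level keeps 27). The lowest adjusted p was 0.0702 for altitude (Pfkp, with the RNA integrity covariate), 0.0612 for the high and 0.241 for the low locations.

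The count over all genes moved more, and the cause was not tested. For altitude, 66 genes passed, against 145 with array weights, 28 with mouse number as a replicate block, 28 with the second probe set, 0 with 1 mean per location in limma (1617 at an unadjusted p under 0.05), 34 without high location A, 100 without high location B, 30 without low location B, 34 without low location C, and 19 (without mouse 3 of low location B) to 84 (without mouse 3 of high location C) when 1 mouse was left out. For the high locations the count was 55, against 288 with array weights, 26 among genes above the median level, 18 with RNA integrity, 7 with the second probe set, and 28 (without mouse 1 of high location A) to 70 with 1 mouse left out. For the low locations it was 13, against 66, 7, 6 and 6 under the same 4 settings and 4 (without mouse 3 of low location B) to 17 with 1 mouse left out. The mouse numbers did not pair the samples, and the replicate block changed no call among the 32 genes. Of the 21 pairs 5 passed. With centring on locations 2 passed: Gckr with Pklr, which is 1 of the 5, and Gckr with Slc2a2, which is not. Within high altitude mice 0 passed (6 at an unadjusted exact permutation p under 0.05), and within low altitude mice 0 passed (5 unadjusted).

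Signs reversed for 12 of the 32 genes in the alternatives run, and further probe sets of Pfkp and Foxo1 reached -0.12 and -0.29. For the altitude difference of Pfkl the value was -0.027 with array weights, -0.00414 with centred arrays, -0.0146 with RNA integrity, -0.129 without high location B, -0.025 without low location C and -0.0575 to 0.074 with 1 mouse left out. The altitude difference of Ppp1r3c was 0.027 with array weights, 0.000203 with RNA integrity and -0.351 to 0.0438 with 1 mouse left out, and the altitude difference of Pck2 was -0.00584 with the second probe set. Without high location A the altitude difference of Aldoc was 0.00568 and the altitude difference of Pgk1 was 0.0214. Without high location C the altitude difference of Fbp1 was -0.0179, the altitude difference of G6pc1 was -0.178, the altitude difference of Slc2a2 was -0.0252 and the altitude difference of Ugp2 was -0.00834. Without low location A the altitude difference of Gckr was 0.0826, the altitude difference of Pck1 was -0.0174 and the altitude difference of Pcx was 0.041. With 1 mouse left out G6pc1 ran from -0.0628 to 0.226, Gckr from -0.106 to 0.0186, and Pgk1 from -0.0757 to 0.0146.

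Among pairs that did not pass, the co-variation of Ppargc1a and Creb3l3 was r = 0.239 with centring, 0.688 within high altitude mice and -0.377 to 0.0521 with 1 mouse left out. The co-variation of Pklr and Pck1 was 0.143, and the co-variation of Ppp1r3b and Ppp1r3c was -0.0924, within high altitude mice. The co-variation of Fbp1 and Pcx was 0.261 within low altitude mice, 0.175 without the 2 farthest mice and -0.335 to 0.114 with 1 mouse left out. The co-variation of Ldha and Pgk1 was -0.131 within low altitude mice, -0.25 with mean probe sets and -0.0921 to 0.309 with 1 mouse left out. The co-variation of Pck1 and Foxo1 was -0.0036 with mean probe sets, and the co-variation of Pfkm and Eno3 was -0.0239 to 0.241 with 1 mouse left out.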

Other observations

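The 5 genes with the largest SD (Ppp1r3c, Ppargc1a, Slc2a2, G6pc1 and Pklr) were set against 18 measured genes of a panel of 20 that respond to feeding, insulin, glucocorticoids or the clock. This comparison was set up after the SDs had been seen. Of 90 relations 5 had an adjusted permutation p under 0.05 (two-sided, 18 mice), with 2 each for Pklr and Ppp1r3c, 1 for Slc2a2, and 0 for G6pc1 and Ppargc1a. None of the 18 panel genes passed the altitude test in limma, and 2 (11.1%) had an unadjusted p under 0.05, against 11.5% of all genes. These were Pdk4, which is also among the other pathway genes above, and the clock gene Nr1d1. Nr1d1 differed by -0.43 ± 0.18 between altitudes (SE, adjusted p = 0.359 in limma's fit).

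Pklr passed with 2 of the 4 fat synthesis genes of the panel. With Srebf1, the insulin-driven regulator of that pathway, r was 0.748 (permutation p = 0.00038, adjusted p = 0.0219) and rho 0.901 (permutation p = 1e-05, the smallest these permutations can give, adjusted p = 0.0009). It was 0.775 within the high and 0.829 within the low altitude mice, and 0.783 without the 2 mice farthest from the median of Pklr. With Fasn, fatty acid synthase, r was 0.693 (permutation p = 0.00126, adjusted p = 0.0283) and rho 0.759 (permutation p = 0.00038, adjusted p = 0.0114), with 0.934 within the high and 0.498 within the low altitude mice and 0.749 without the 2 farthest mice. Pklr did not pass with Thrsp (r = 0.631, permutation p = 0.00496, adjusted p = 0.0638; rho = 0.612, permutation p = 0.0081, adjusted p = 0.104; r = 0.608 without the 2 farthest mice) or with Scd1 (r = 0.379, permutation p = 0.122, adjusted p = 0.365; rho = 0.131, permutation p = 0.603, adjusted p = 0.743; r = 0.391 without the 2 farthest mice). Slc2a2 ran against Tsc22d3, a glucocorticoid-induced gene, with r = -0.676 (permutation p = 0.00191, adjusted p = 0.0344), which did not pass by rho (-0.573, permutation p = 0.0149, adjusted p = 0.134) and was -0.54 without the 2 farthest mice.

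Ppp1r3c passed with the clock genes Dbp and Arntl, but Dbp split the mice into 2 sets, so no r over all mice is given for these. In 10 mice (7 high and 3 low altitude) Dbp lay between 5.06 and 6.85, with Ppp1r3c between 9.56 and 12.0. In the other 8 (2 high and 6 low altitude) Dbp lay between 8.9 and 10.9, with Ppp1r3c between 8.33 and 10.4. Within the 10 mice Ppp1r3c with Dbp had r = -0.667 (permutation p = 0.0307, adjusted p = 0.123 over 4 relations; rho = -0.745), and within the 8 mice r = -0.324 (exact permutation p = 0.439, adjusted p = 0.439; rho = -0.548). With Arntl, r was 0.39 within the 10 mice (permutation p = 0.266, adjusted p = 0.355; rho = 0.406) and 0.679 within the 8 (exact permutation p = 0.0828, adjusted p = 0.166; rho = 0.381). The hour at which the livers were taken is not given in the sources used here, and its part in these levels was not tested.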
